A study of Mus musculus with 24 samples.

Results

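Tripartite motif (TRIM) genes encode a large family of proteins that carry, in order, a RING finger, 1 or 2 B-box zinc fingers and a coiled coil, followed by a C-terminal domain that sets most subtypes apart. The genes described here are the protein-coding genes of the mouse whose symbol is Trim followed by a digit, with 1 such gene left out. They numbered 67 among 54532 annotated features. A count fell on 56 of them in at least 1 library, and 42 passed a filter on low counts and were tested. Messenger RNA (polyA RNA) was sequenced from mouse peritoneal macrophages in 24 libraries, 6 groups of 4. The groups are M1 cells (LPS plus IFN-γ) with ONX-0914, M1 cells without it, M2 cells (IL-4) with ONX-0914, M2 cells without it, and unpolarized M0 cells with and without ONX-0914. ONX-0914 is an inhibitor of the immunoproteasome with selectivity for its PSMB8 (LMP7) subunit. For each library 50000 cells were collected from a pool of 2 to 3 mice, so no single animal was measured. Strain, age, doses and times of treatment are not stated in the labels.

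The RING finger makes most TRIM proteins E3 ubiquitin ligases, which choose the protein that receives ubiquitin. Ubiquitin chains of one linkage send a protein to the proteasome, while others assemble signalling complexes. TRIM proteins are best known in innate immunity: several are induced by interferon, several act on the sensors of viral RNA and DNA and on the kinases downstream of them, and in primates TRIM5 attacks the capsid of entering retroviruses. Others are transcriptional cofactors (the PHD-bromodomain type), bind RNA or act in neurons (the NHL type), or bind microtubules (the COS-box type).

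Total counts per library ran from 18230924 to 22882972. One library stood apart: M1 replicate 2 had 0.3% mitochondrial counts against 1.07% to 1.14% in the other 3 M1 libraries, and its mean correlation with its group was 0.977 against 0.986 to 0.987. Some results that rest on it are given with and without it, and the others with it only. Macrophage markers summed to between 9023 and 14513 CPM (counts scaled to library size) in every library. T and NK cell markers reached at most 0.588 CPM and mast cell and basophil markers at most 1.3 CPM, while the neutrophil list summed to 2.28 to 11.7 CPM and the dendritic cell list to 2.17 to 10 CPM. Of the 6 neutrophil genes, Ly6g and S100a9 had no count in any library. Markers of mesothelium and fibroblasts summed to 213 to 395 CPM over all groups. In these bulk libraries fewer cells of a type and less RNA per cell cannot be told apart.

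The Trim5, Trim12, Trim30 and Trim34 genes, 9 members in all, lie in a cluster on chromosome 7 from Trim34a to Trim30d (GRCm38, 104244457 to 104507849). They are Trim34a, Trim5, Trim12a, Trim34b, Trim12c, Trim30b, Trim30c, Trim30a and Trim30d. All 9 were listed under the PRY-SPRY type. Types were assigned by gene name, and whether each protein carries the domain was not checked. Trim21 lies on the same chromosome at 102557921 to 102565486. RefSeq promoter windows (GRCm38.p6, 250 bases before the annotated start to 50 from the start on) were found for 52 of the 67 members. The core of the interferon-stimulated response element (ISRE), GAAA, any 2 bases and GAAA again, on either strand, was present for 9 of the 52 (Trim2, Trim5, Trim12a, Trim12c, Trim21, Trim26, Trim30a, Trim30d and Trim34a). Of all genes with a RefSeq window of that length, 3.99% held it. The ISRE is the DNA element bound by interferon-activated transcription factors; a match is a stretch of letters, not a measured binding site. Trim30b, whose difference between groups was also among the largest, has a window without an ISRE core, which is not shown. The 7 stretches with a match on chromosome 7 and that of Trim30c, which has none, are shown because most of the largest differences between groups fell on these genes. Each is 150 bases long, 120 before the start and 30 from the start on, read 5′ to 3′ on the gene's own strand; capitals mark the ISRE core match, or, for Trim30c, a match to the IFN-γ-activated site core TTCNNNGAA.
Trim30a, chr7:104465164-104465313, minus strand: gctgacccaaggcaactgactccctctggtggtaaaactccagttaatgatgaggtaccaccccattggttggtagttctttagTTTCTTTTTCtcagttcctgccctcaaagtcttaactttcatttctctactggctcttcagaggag
Trim30d, chr7:104507820-104507969, minus strand: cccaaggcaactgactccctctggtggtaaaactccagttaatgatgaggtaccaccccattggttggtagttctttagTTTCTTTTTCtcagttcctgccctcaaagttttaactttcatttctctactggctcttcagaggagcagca
Trim30c, chr7:104400749-104400898, minus strand: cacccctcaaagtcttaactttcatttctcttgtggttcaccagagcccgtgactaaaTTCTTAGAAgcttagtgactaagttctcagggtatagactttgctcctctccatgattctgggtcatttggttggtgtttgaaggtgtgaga
Trim12a, chr7:104315466-104315615, minus strand: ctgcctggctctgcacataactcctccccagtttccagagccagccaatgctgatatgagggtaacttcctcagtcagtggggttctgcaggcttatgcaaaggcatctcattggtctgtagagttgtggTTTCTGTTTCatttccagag
Trim12c, chr7:104353320-104353469, minus strand: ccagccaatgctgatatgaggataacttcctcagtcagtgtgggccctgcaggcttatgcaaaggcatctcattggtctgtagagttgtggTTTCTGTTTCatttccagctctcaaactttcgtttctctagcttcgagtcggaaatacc
Trim5, chr7:104288077-104288226, minus strand: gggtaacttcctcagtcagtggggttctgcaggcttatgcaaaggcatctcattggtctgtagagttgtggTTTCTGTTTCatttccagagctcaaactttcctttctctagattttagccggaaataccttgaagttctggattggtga
Trim34a, chr7:104244337-104244486, plus strand: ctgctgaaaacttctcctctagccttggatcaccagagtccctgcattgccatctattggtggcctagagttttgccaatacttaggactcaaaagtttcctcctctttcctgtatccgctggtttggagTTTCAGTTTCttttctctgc
Trim21, chr7:102565453-102565602, minus strand: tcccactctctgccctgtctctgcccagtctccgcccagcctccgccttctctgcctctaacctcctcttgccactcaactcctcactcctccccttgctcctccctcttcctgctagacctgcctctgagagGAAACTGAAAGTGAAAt

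The stretches fall into related sets. Those of Trim30a and Trim30d share an identical run of 109 bases, which includes the ISRE core TTTCTTTTTC (the reverse complement of the motif as written). Those of Trim12a and Trim5 share a run of 91 bases, and Trim12c shares 63 bases with each of them, in all 3 cases around the core TTTCTGTTTC. Trim34a carries TTTCAGTTTC, and Trim21 carries 2 overlapping matches in GAAACTGAAAGTGAAA. Trim30c shares 28 bases with Trim30a, outside the capitals. Trim30a has 2 RefSeq windows, of which the upstream one is shown, and both hold an ISRE core. The transcripts of the cluster are also alike: 39.8% of the 50-base windows of Trim34a recur in another gene, 36.3% of those of Trim5 and 33% of those of Trim12c. For Trim30a, Trim30b, Trim30c and Trim30d the share is 0.55% to 7.49%. Reads of the first 3 could have been split between copies by the authors' counting, so their levels are less certain.

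Levels are given as CPM on effective library sizes, the library total scaled by edgeR's TMM factor, and differences as log2 changes from edgeR's quasi-likelihood test over all 14692 genes that passed the filter. A gene is called at an adjusted p below 0.05. Per kilobase of exon, the members with the highest mean level in M0 cells were Trim35 (40.3 CPM per kilobase), Trim25 (33.6), Trim28 (25.2) and Trim8 (20.4). In M2 cells the first 4 were again Trim35 (53.4), Trim25 (25.7), Trim28 (25.3) and Trim8 (18.6). Trim25 and Trim28 in M2 cells lie within their spread of each other. M1 cells had another order, with Trim30a (192 CPM per kilobase), Trim25 (110), Trim30c (77.3), Trim30d (72.1) and Trim35 (59.9) highest, and there Trim30d lies within its spread of both Trim30c and Trim35.

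**Figure D1:**
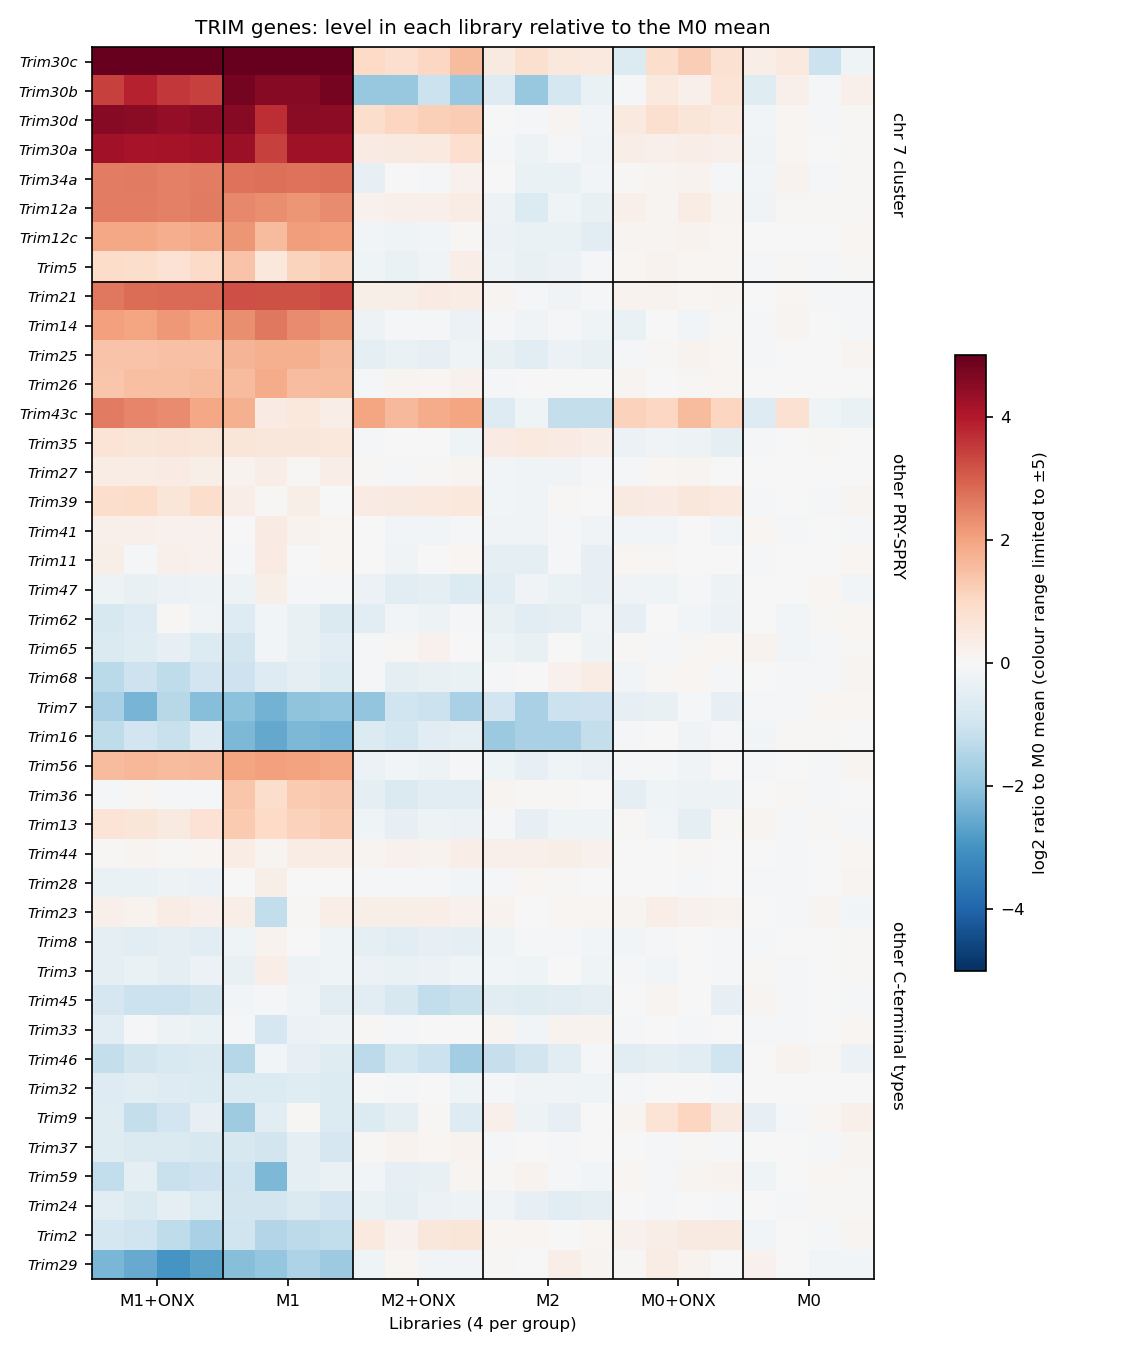
Heat map of the tested TRIM genes (rows) in the 24 libraries (columns, 4 per group in the order M1 with ONX-0914, M1, M2 with ONX-0914, M2, M0 with ONX-0914, M0). Colour gives the log2 ratio of each library's CPM to the M0 mean, with 0.1 CPM added to both and the colour range limited; the chromosome 7 cluster and Trim21 are high in the 8 M1 libraries, with and without ONX-0914.

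With polarization by LPS plus IFN-γ, the 4 largest changes among the tested members were the rises of Trim30c, Trim30b, Trim30d and Trim30a. All 8 tested genes of the cluster rose in M1 against M0 cells, with a median log2 change of 3.42. Of the 42 tested members, 20 rose and 13 fell, and 9 passed in neither direction. The background is high, and the members' share is near it: 68.8% of all tested genes were called in this comparison, 34.6% higher and 34.2% lower. The median log2 change was 0.14 over the tested members and -0.02 over all tested genes. Outside the cluster 12 of 34 rose and 13 fell, with a median of -0.05. The 16 tested PRY-SPRY members outside the cluster had 8 higher and 5 lower, with a median of 0.18.

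Markers of other cells and the mitochondrial share moved in this comparison too. Of 5 dendritic cell markers 3 were tested and all 3 rose (median log2 change 2.68); the list summed to 6.74 to 10 CPM in M1 cells and 2.22 to 3.09 CPM in M0 cells, and Siglech had no count in M1 cells. Of the 6 B cell markers 4 fell and 1 rose, with sums of 63.3 to 75 CPM in M1 cells and 92.7 to 95.4 CPM in M0 cells. Of the 6 neutrophil markers 1 was tested, and it rose (log2 change 0.89), with sums of 4.71 to 11.7 CPM in M1 cells and 4.12 to 5.45 CPM in M0 cells. Mitochondrial counts were 0.3% to 1.14% in M1 libraries and 1.71% to 1.78% in M0 libraries. The part of these shifts in the changes of TRIM genes was not tested.

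Trim30c showed the widest range. It had 138, 112, 137 and 143 CPM in M1 libraries and 0.289, 0.343, 0.0483 and 0.166 CPM in M0 libraries. The M0 values rest on 18 counts in all 4 libraries together, so the log2 change of 9.26 ± 0.18 (SE, adjusted p = 1.39e-25) is less certain in size than in direction. Trim30a, which in mouse macrophages curbs Toll-like receptor signalling through the kinase adaptors TAB2 and TAB3, had 910, 490, 877 and 876 CPM in M1 libraries and 40.9, 49.9, 46 and 48.4 CPM in M0 libraries. The groups were far apart, and the low M1 value was that of replicate 2. The log2 change was 4.09 ± 0.14 (adjusted p = 3.85e-20), and 4.26 without M1 replicate 2. Trim30d had 313, 172, 304 and 295 CPM in M1 libraries against 12.1, 14.2, 12.8 and 13.9 CPM in M0 libraries, a log2 change of 4.35 ± 0.14 (adjusted p = 1.27e-20). It was 4.52 without M1 replicate 2, again the lowest of its group.

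Trim30b, the lowest expressed of the 4 neighbours per kilobase in M1 cells, rose as well. It had 20, 17.2, 17.3 and 20.1 CPM in M1 libraries against 0.386, 0.785, 0.58 and 0.787 CPM in M0 libraries (log2 change 4.85 ± 0.19, adjusted p = 1.64e-18). The other 4 tested genes of the cluster rose by less. Trim34a averaged 62.5 ± 1.22 CPM in M1 cells and 9.29 ± 0.978 CPM in M0 cells (SD, n = 4 each; log2 change 2.75). Trim12a averaged 81.8 ± 4.58 CPM in M1 cells and 16.2 ± 1.22 CPM in M0 cells (log2 change 2.33). Trim12c averaged 117 ± 19.9 CPM in M1 cells and 29.2 ± 1.22 CPM in M0 cells (4.01-fold). Trim5, in the mouse a member of the group of genes related to the primate restriction factor, averaged 17.3 ± 4.4 CPM in M1 cells and 7.91 ± 0.4 CPM in M0 cells, the smallest change of the 8 (log2 1.13 ± 0.14, adjusted p = 4.15e-08). In none of the 8 did an M1 library overlap the M0 libraries. The share of all tested genes without overlap was not computed, and 68.8% of all tested genes were called in this comparison. Trim34b of the same cluster did not pass the filter, with 19 counts over the M1 libraries and 5 over the M0 libraries.

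Outside the cluster, Trim21, Trim14, Trim56, Trim25 and Trim26 rose most. Trim21, the cytosolic receptor for antibody that enters a cell with a virus, had 122, 119, 119 and 129 CPM in M1 libraries and 13.1, 13.7, 12.4 and 12.6 CPM in M0 libraries. This was a 9.45-fold difference (log2 3.24 ± 0.06, adjusted p = 2.79e-25), with no overlap. Trim14, an adaptor at mitochondria without a RING finger, averaged 82.1 ± 10.6 CPM in M1 cells and 15.6 ± 1.04 CPM in M0 cells (log2 change 2.40). Its exons share 31.3% of their length with Nans on the opposite strand, and without a stated strand setting reads of the 2 genes cannot be told apart. Trim56, a ligase that acts on the DNA sensing pathway, averaged 204 ± 7.07 CPM in M1 cells and 51.3 ± 4.16 CPM in M0 cells (log2 change 1.99). Trim25, known from human cells for ubiquitin chains on the RNA sensor RIG-I, had 624, 664, 658 and 596 CPM in M1 libraries against 184, 190, 189 and 210 CPM in M0 libraries (log2 change 1.72 ± 0.06, adjusted p = 1.81e-19). Trim26 averaged 144 ± 14.8 CPM in M1 cells and 46.3 ± 0.953 CPM in M0 cells (log2 change 1.63, and 1.56 without M1 replicate 2).

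**Figure D2:**
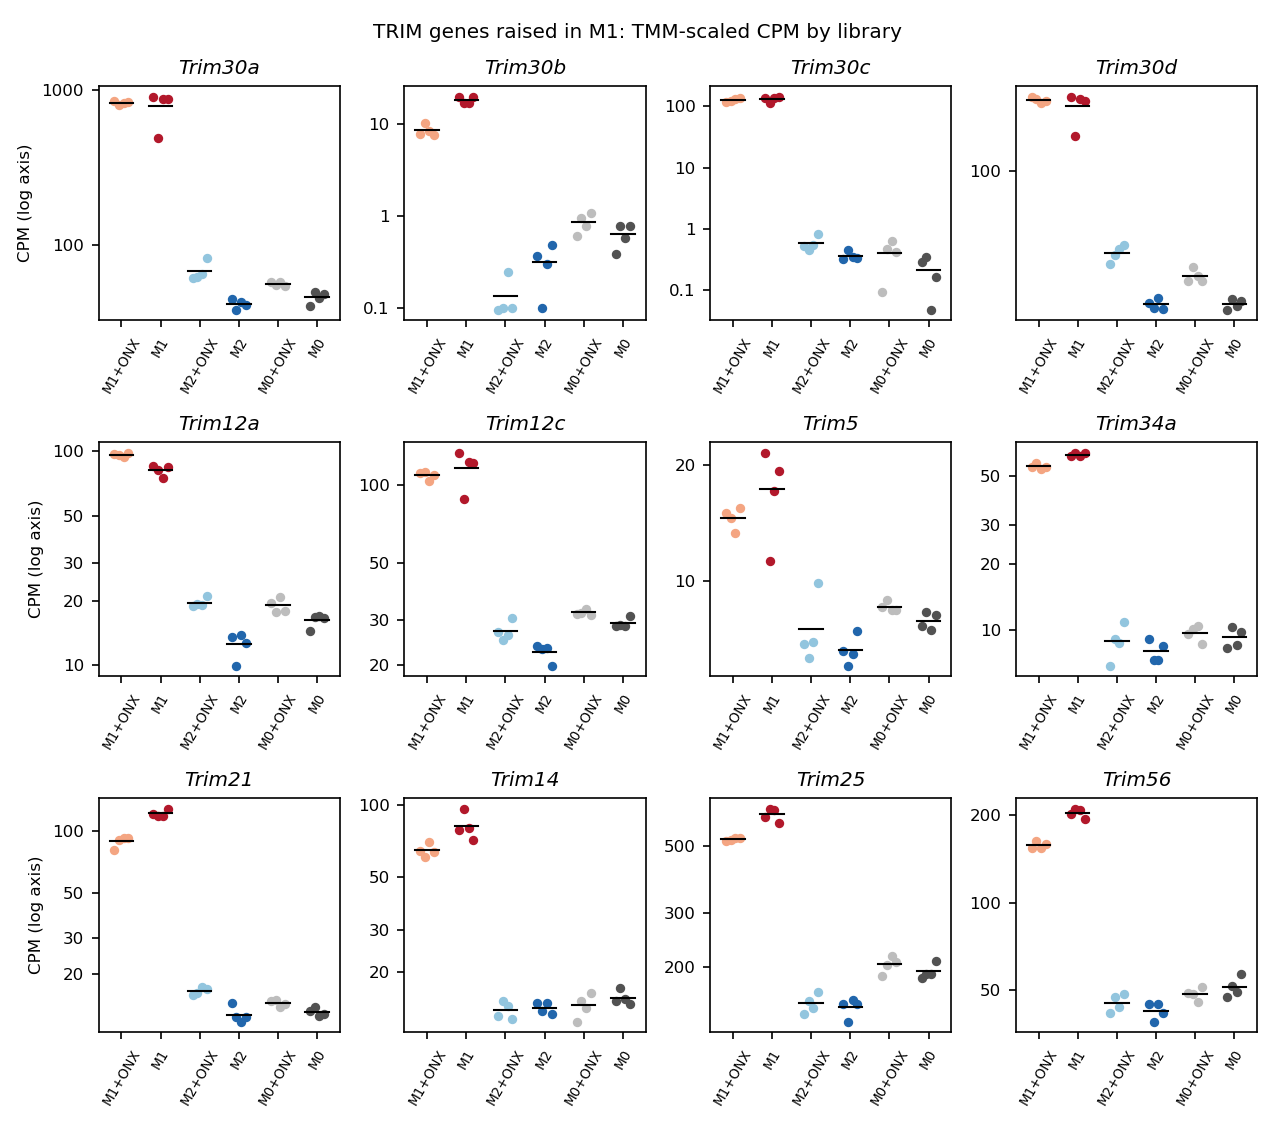
CPM (log axis, its range set for each gene) of TRIM genes that were higher in M1 cells, in each of the 24 libraries by group; points are libraries and bars are group means. Trim30a and Trim30d show 1 low point in the M1 group, replicate 2, at 490 and 172 CPM, which still lies above all M0 and M2 libraries.

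Other types rose too. Trim36, a COS-box protein that binds microtubules, had 62.3, 43.3, 59 and 59.7 CPM in M1 libraries against 23.8, 24.5, 22.2 and 23.7 CPM in M0 libraries (log2 change 1.25 ± 0.08, adjusted p = 1.89e-13). Trim13, a ligase anchored in the endoplasmic reticulum, averaged 24.7 ± 2.6 CPM in M1 cells and 10.8 ± 0.883 CPM in M0 cells (log2 change 1.20). Trim35, the highest member per kilobase in M0 cells, averaged 277 ± 7.63 CPM in M1 cells and 186 ± 7.54 CPM in M0 cells (log2 change 0.57). Trim44 and Trim27 had smaller rises, of 0.31 and 0.23 on the log2 scale. With the M1 and M0 libraries fitted alone Trim27 did not pass (0.18, adjusted p = 0.0535). The rise of Trim41 (0.18) did not pass in that fit (0.13), without the count filter (0.15) or without M1 replicate 2 (0.09). Trim43c rested on 21 counts in M1 and 11 in M0 libraries, and its call ended without any 1 of 4 libraries: M1 replicate 1 (0.68), M0 replicate 1 (1.08), M0 replicate 3 (1.22) or M0 replicate 4 (1.15).

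Trim16, Trim7, Trim29 and Trim2 fell most in M1 against M0 cells. Trim16, which lacks a RING finger and takes part in the handling of damaged lysosomes, had 1.4, 1.11, 1.39 and 1.32 CPM in M1 libraries and 6.42, 7.21, 7.29 and 7.12 CPM in M0 libraries, 5.34-fold lower (log2 change -2.42 ± 0.16, adjusted p = 1.42e-13). Trim7, a binding partner of glycogenin, averaged 0.439 ± 0.0668 CPM in M1 cells and 2.18 ± 0.188 CPM in M0 cells (log2 change -2.29). Trim29 averaged 1.11 ± 0.208 CPM in M1 cells and 4.27 ± 0.537 CPM in M0 cells (log2 change -1.93). Trim2, an NHL-type ligase best known from neurons, averaged 3.64 ± 0.511 CPM in M1 cells and 8.79 ± 0.732 CPM in M0 cells (log2 change -1.27). None of these 4 had overlapping groups, which was not counted over all genes. All 4 are low, with 28 to 231 counts over the 4 M1 libraries.

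Of the nuclear cofactors of the PHD-bromodomain type 3 were tested. None rose and 2 fell, where 34.6% of all tested genes rose and 34.2% fell. Trim24 averaged 7.3 ± 0.537 CPM in M1 cells and 13.4 ± 0.609 CPM in M0 cells (log2 change -0.88), and Trim33, a regulator of SMAD-dependent transcription, fell by 0.34 on the log2 scale (by 0.21 without M1 replicate 2, whose 23.7 CPM was the lowest of its group). Trim28, the corepressor of KRAB zinc finger proteins, had 110 ± 11.4 CPM in M1 cells and 105 ± 6.82 CPM in M0 cells (log2 difference 0.07, adjusted p = 0.291). Trim32 (log2 change -0.67), Trim37 (-0.75), Trim59 (-0.84, and -0.57 without M1 replicate 2), Trim68 (-0.71) and Trim65 (-0.47) fell as well. The falls of Trim62 (-0.46) and Trim46 (-0.60) were not stable. That of Trim62 ended without M1 replicate 1 (-0.40) or M1 replicate 4 (-0.38). That of Trim46 ended without M0 replicate 1 (-0.60), M0 replicate 2 (-0.53), M0 replicate 3 (-0.57), M1 replicate 1 (-0.39) or M1 replicate 4 (-0.58). A further 4 members passed without M1 replicate 2: Trim8 (-0.14) and Trim3 (-0.28) as lower, and Trim23 (0.24) and Trim39 (0.23) as higher.

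Set against the promoter windows, 31 tested members had a window, of which 16 rose and 9 fell in M1 cells. Of the 9 with an ISRE core, 8 rose and 1, Trim2, fell. The IFN-γ-activated site core was found in 6 members, 3 of them tested (1 rose and 1 fell), and in 9.55% of all genes with a window. Of the other motifs searched, the STAT6-type site (TTC, any 4 bases, GAA; STAT6 is the factor downstream of IL-4) was found in 8 members and 8.01% of all genes with a window, and the antioxidant response element core TGACNNNGC in 8 members and 14.0% of all such genes. Trim30b, Trim14, Trim25 and Trim56 rose in M1 cells and are not among the 9. The number of genes is small. Some of the cluster's promoters share long identical runs: Trim30a with Trim30d, and Trim5, Trim12a and Trim12c with each other. These counts are therefore a description and were not tested.

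**Figure D3:**
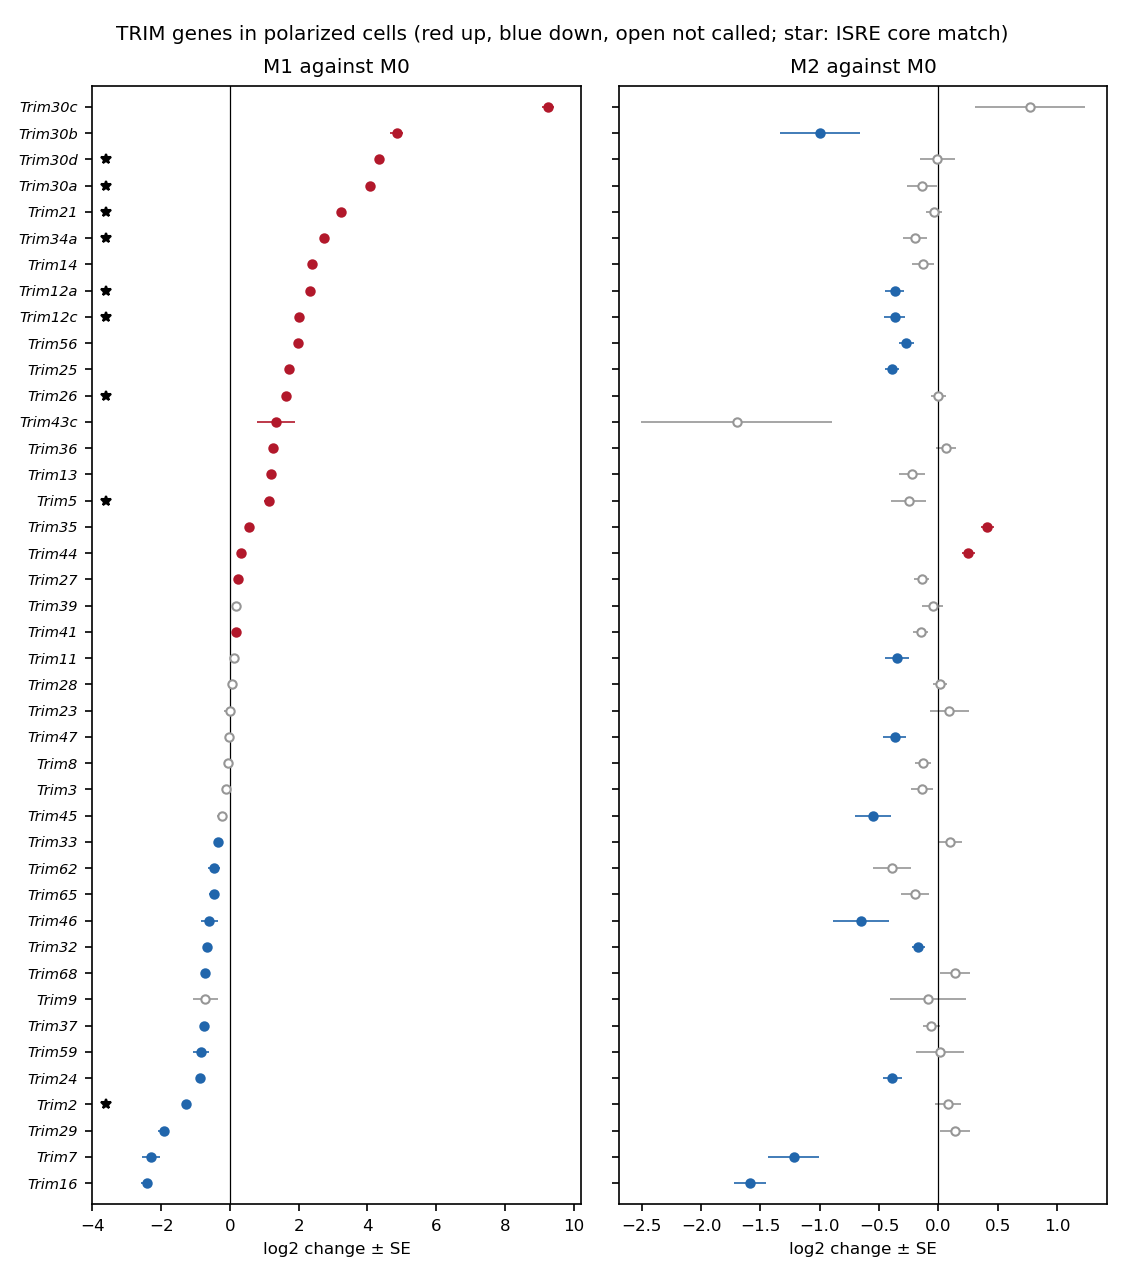
Log2 change with its SE for each tested TRIM gene in M1 against M0 cells (left) and M2 against M0 cells (right; horizontal axes, genes in the same order down the page). Red points were higher and blue points lower at an adjusted p below 0.05, open points did not pass, and a star in the left panel marks an ISRE core match; Trim30c is farthest right at 9.26 in M1 against M0 cells.

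IL-4 changed fewer members, and mostly downward. In M2 against M0 cells 2 members rose and 13 fell, while 36.2% of all tested genes were called, 18.7% higher and 17.5% lower. The median log2 change was -0.14 over the tested members and 0.01 over all genes. The rises were Trim35, which had 245, 259, 247 and 236 CPM in M2 libraries against 178, 187, 196 and 183 CPM in M0 libraries (log2 change 0.41 ± 0.05, adjusted p = 9.30e-07), and Trim44 (log2 change 0.25). Trim16 fell most, with 1.88, 2.2, 2.21 and 3.04 CPM in M2 libraries against 6.42, 7.21, 7.29 and 7.12 CPM in M0 libraries (3.01-fold lower, log2 change -1.59 ± 0.14). Trim7 fell by 1.22 and Trim45, a filamin-type member, by 0.55. Smaller falls were those of Trim24 (-0.39), Trim25 (-0.39), Trim12a (-0.37), Trim12c (-0.37), Trim47 (-0.37), Trim11 (-0.35) and Trim56 (-0.27). The fall of Trim32 (-0.17) ended without M2 replicate 3 (-0.16), without M2 replicate 4 (-0.15) or without the count filter (-0.18). Trim30b (2.01-fold lower) rested on 27 counts in M2 and 55 in M0 libraries and its call ended without M0 replicate 2 (log2 change -0.90), M0 replicate 4 (-0.87) or M2 replicate 2 (-0.75). Trim46 (-0.65) ended without any 1 of 6 libraries, with values between -0.50 (without M2 replicate 1) and -0.67 (without M2 replicate 3). Without M1 replicate 2, which is in neither group compared but enters the shared fit (filter, scaling, spread and adjustment), 17 members fell.

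Set directly against M2 cells, M1 cells had 22 members higher and 10 lower, at a background of 66.6% of all genes called, 32.2% higher and 34.4% lower. This comparison shares its M1 and M2 libraries with those above. The 8 genes of the cluster were all higher, between 1.38 (Trim5) and 8.49 (Trim30c) on the log2 scale. Trim21 (3.28 ± 0.06), Trim14 (2.53), Trim56 (2.26) and Trim25 (2.11) followed. Trim26 (1.64), Trim13 (1.42) and Trim36 (1.19) were also higher in M1 cells. Trim29 (-2.07 ± 0.16), Trim2 (-1.35), Trim7 (-1.07), Trim68 (-0.86), Trim59 (-0.84, and -0.57 without M1 replicate 2) and Trim16 (-0.83) were lower in M1 than in M2 cells. Trim43c had 21 counts in M1 libraries and 3 in M2 libraries, a ratio of 9.46 after scaling with a 95% counting interval from 2.82 to 49.5.

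ONX-0914 in M1 cells lowered more members than it raised, as it did among all tested genes. The share of members called was near the background. Of the 42 tested, 5 rose and 15 fell in M1 cells with ONX-0914 against M1 cells, while 44.3% of all tested genes were called, 16.6% higher and 27.7% lower. The median log2 change was -0.13 over the members and -0.08 over all genes. With the 8 M1 libraries fitted alone, 7 members rose and 10 fell, and 51.9% of all called genes were higher in place of 37.4%. Leaving out M1 replicate 2, 7 members rose and 15 fell. B cell markers moved with the inhibitor in each state: they summed to 36.7 to 40.2 CPM in M1 cells with ONX-0914 and to 63.3 to 75 CPM in M1 cells. Their part in the changes of TRIM genes was not tested. The sum of macrophage markers ran from 9023 to 9483 CPM in M1 cells with ONX-0914 and from 11525 to 14148 CPM in M1 cells.

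Trim36 had the largest fall. It had 22.5, 24.7, 21.9 and 22.8 CPM in M1 libraries with ONX-0914 and 62.3, 43.3, 59 and 59.7 CPM in M1 libraries. The groups did not overlap, and the inhibited libraries lay within the range of M0 cells without inhibitor (22.2 to 24.5 CPM) or next to it. The log2 change was -1.29 ± 0.08 (adjusted p = 1.28e-12), and -1.39 without M1 replicate 2. Trim30b was the only gene of the chromosome 7 cluster to fall, with 7.85, 10.4, 8.42 and 7.71 CPM in M1 libraries with ONX-0914 against 20, 17.2, 17.3 and 20.1 CPM in M1 libraries, 2.17-fold lower (log2 change -1.12 ± 0.14, adjusted p = 2.59e-07).

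Trim30a, Trim30d and Trim30c, the neighbours of Trim30b, did not pass the test. Trim30a averaged 833 ± 21.6 CPM in M1 cells with ONX-0914 and 788 ± 199 CPM in M1 cells (log2 difference 0.08, adjusted p = 0.633, and -0.09 without M1 replicate 2). Trim30d averaged 298 ± 12.1 CPM with the inhibitor and 271 ± 66.5 CPM without it (log2 difference 0.14, adjusted p = 0.354, and -0.03 without M1 replicate 2). Trim30c averaged 126 ± 7.25 CPM with the inhibitor and 133 ± 14.2 CPM without it (log2 difference -0.08, adjusted p = 0.51). Trim34a had 55.2 ± 1.42 CPM with the inhibitor and 62.5 ± 1.22 CPM without it (log2 difference -0.18, adjusted p = 0.0874). Trim12c (-0.09) and Trim5 (-0.25) did not pass with all libraries, and passed as lower without M1 replicate 2, at -0.20 and -0.40. Trim12a alone of the cluster rose, with 97.3, 96.4, 94 and 98.7 CPM in M1 libraries with ONX-0914 against 85.3, 82.1, 75.3 and 84.7 CPM in M1 libraries (log2 change 0.24 ± 0.07, adjusted p = 0.00603).

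A further 10 members fell by less than Trim36 and Trim30b. Trim21 had 80.4, 90.3, 92.7 and 93 CPM in M1 libraries with ONX-0914 and 122, 119, 119 and 129 CPM in M1 libraries, with no overlap (log2 change -0.46 ± 0.06, adjusted p = 1.68e-07). Its inhibited level was still above every M0 library. Trim13 averaged 16.5 ± 1.17 CPM with the inhibitor and 24.7 ± 2.6 CPM without it (log2 change -0.58). Trim8, which promotes signalling through the kinase TAK1, averaged 53.6 ± 2.06 CPM with the inhibitor and 72.3 ± 9.68 CPM without it (log2 change -0.43, and -0.35 without M1 replicate 2). Trim56 (-0.37), Trim14 (-0.34), Trim25 (-0.27) and Trim44 (-0.22) also fell, though with the 8 M1 libraries fitted alone Trim44 did not pass (-0.12, adjusted p = 0.198). The corepressor Trim28 fell as well, with 84.8 ± 1.41 CPM in M1 cells with ONX-0914 and 110 ± 11.4 CPM in M1 cells (log2 change -0.38). Trim26 did not pass (log2 difference -0.13, adjusted p = 0.0968). Among low genes, Trim45 had 1.78 ± 0.138 CPM with the inhibitor and 3.07 ± 0.474 CPM without it (log2 change -0.78), and Trim29 had 0.632 ± 0.136 CPM with it and 1.11 ± 0.208 CPM without it (log2 change -0.80, not passing without M1 replicate 3 at -0.67 or with the M1 libraries fitted alone at -0.71).

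A further 3 falls each ended without any 1 of several libraries. None of the 3 passed with the 8 M1 libraries fitted alone (Trim3 -0.18, Trim47 -0.17, Trim68 -0.37). Trim3 (-0.28) ended without M1 replicate 2 (-0.11), M1 with ONX-0914 replicate 1 (-0.25) or replicate 3 (-0.25). Trim47 (-0.26) ended without M1 replicate 2 (-0.14) or without M1 with ONX-0914 replicate 2 (-0.23), replicate 3 (-0.26) or replicate 4 (-0.27). Trim68 (-0.46) ended without M1 replicate 3 (-0.37) or without M1 with ONX-0914 replicate 1 (-0.39) or replicate 3 (-0.42). M1 replicate 2 had the highest M1 value of both Trim3, at 55.4 CPM, and Trim47, at 29.1 CPM.

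Trim16 moved the other way. It had 2.85, 3.54, 3.2 and 4.39 CPM in M1 libraries with ONX-0914 against 1.4, 1.11, 1.39 and 1.32 CPM in M1 libraries, a 2.65-fold rise (log2 change 1.41 ± 0.17, adjusted p = 1.77e-07). Its inhibited level stayed below all M0 libraries. Trim39, a ligase known to restrain the anaphase-promoting complex, had 27.3, 27.9, 22.5 and 27.4 CPM in M1 libraries with ONX-0914 against 18.7, 15.4, 18 and 15 CPM in M1 libraries (log2 change 0.65 ± 0.08, adjusted p = 3.96e-07). Trim24 rose by 0.27 on the log2 scale, and that call ended without M1 with ONX-0914 replicate 3 (0.24) or without the count filter (0.29). Trim43c had 76 counts in M1 libraries with ONX-0914 and 21 in M1 libraries (log2 change 1.68 ± 0.40, adjusted p = 0.00108).

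**Figure D4:**
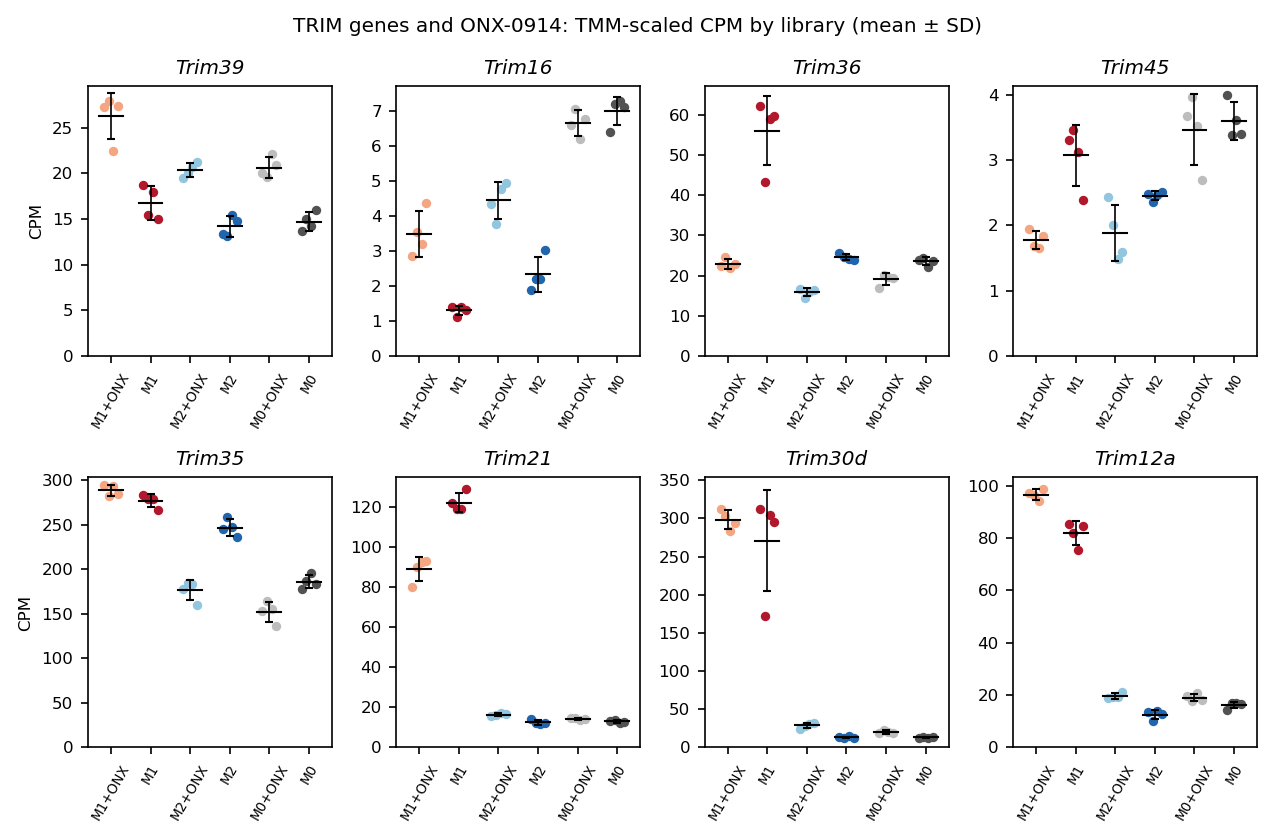
CPM of TRIM genes that passed the test with ONX-0914, in each of the 24 libraries by group (1 panel per gene, vertical axis range set for each gene); points are libraries and bars are group means with their SD. Trim36 is lower with ONX-0914 in all 3 states, Trim39 is higher in all 3, and Trim16 is higher in M1 and M2 but not in M0 cells.

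In M2 cells the balance was the reverse, with 12 members higher and 4 lower in M2 cells with ONX-0914 against M2 cells. Of all tested genes 36.4% were called, 17.6% higher and 18.8% lower. The median log2 change was 0.07 over the members and -0.00 over all genes. With size factors as DESeq2 sets them, 10 members were higher and 6 lower. B cell markers summed to 57.3 to 64.8 CPM in M2 cells with ONX-0914 and to 104 to 112 CPM in M2 cells, and macrophage markers to 10007 to 11254 CPM and 12410 to 13704 CPM; their part was not tested.

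Of the 8 tested cluster genes, 4 rose with the inhibitor in M2 cells and none fell. Trim30d had 24.5, 27.8, 30.7 and 32.5 CPM in M2 libraries with ONX-0914 against 13.5, 12.4, 14.5 and 12.2 CPM in M2 libraries, a 2.19-fold rise without overlap (log2 change 1.13 ± 0.14, adjusted p = 2.07e-07). Trim30a had 61.9, 63, 65.8 and 83.5 CPM with the inhibitor against 45, 38.5, 43.2 and 41.5 CPM without it (log2 change 0.70 ± 0.13, adjusted p = 7.57e-05). Trim12a averaged 19.6 ± 0.982 CPM with the inhibitor and 12.5 ± 1.77 CPM without it (log2 change 0.65). The rise of Trim12c (0.27) ended without M2 replicate 4 (0.21) or M2 with ONX-0914 replicate 4 (0.21). Trim30b had 11 counts over the M2 libraries with ONX-0914 and 27 over the M2 libraries (log2 difference -1.18, adjusted p = 0.0541). It passed as lower in 4 of the fits with 1 library less, at -1.18 without M0 replicate 1 or M1 with ONX-0914 replicate 2, -1.44 without M2 replicate 2 and -1.62 without M2 with ONX-0914 replicate 3. Trim30b also passed as lower with DESeq2 size factors (-1.21) and with DESeq2's Wald test (-1.25).

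Outside the cluster, Trim16 had 4.34, 3.77, 4.77 and 4.96 CPM in M2 libraries with ONX-0914 against 1.88, 2.2, 2.21 and 3.04 CPM in M2 libraries (1.91-fold higher, log2 change 0.94 ± 0.14, adjusted p = 7.50e-06). Trim39 averaged 20.4 ± 0.805 CPM with the inhibitor and 14.2 ± 1.1 CPM without it (log2 change 0.52), Trim21 16.4 ± 0.631 CPM with it and 12.6 ± 1.2 CPM without it (0.39), and Trim2 12.2 ± 1.5 CPM with it and 9.31 ± 0.226 CPM without it (0.40). Trim11 rose by 0.34. The rises of Trim27 and Trim37, both 0.18, were the least stable, each ending with DESeq2 size factors (both 0.15), without the count filter (0.18 and 0.19) and in 4 of the fits with 1 library less. Trim27 gave 0.18, 0.18, 0.17 and 0.15 without M2 replicate 1, M2 replicate 2, M2 replicate 3 and M2 with ONX-0914 replicate 4. Trim37 gave 0.17, 0.17, 0.16 and 0.17 without M2 replicate 1, M2 replicate 3, and M2 with ONX-0914 replicates 2 and 4. Trim43c had 60 counts in M2 libraries with ONX-0914 and 3 in M2 libraries, a ratio of 21.1 with a 95% counting interval from 6.88 to 105.

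The 4 members that fell in M2 cells were Trim36, Trim35, Trim68 and Trim8. Trim36 had 16.7, 14.4, 15.8 and 16.3 CPM in M2 libraries with ONX-0914 and 25.6, 24.6, 24.2 and 23.8 CPM in M2 libraries (log2 change -0.64 ± 0.09, adjusted p = 1.37e-06). Trim35 had 178, 185, 183 and 160 CPM with the inhibitor and 245, 259, 247 and 236 CPM without it (log2 change -0.48 ± 0.05, adjusted p = 6.49e-08). Trim68 averaged 4.02 ± 0.457 CPM with the inhibitor and 5.51 ± 0.766 CPM without it (log2 change -0.45), and Trim8 54.8 ± 1.9 CPM with it and 68.9 ± 2.51 CPM without it (log2 change -0.33).

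Unpolarized cells showed the fewest changes. In M0 cells with ONX-0914 against M0 cells 5 members rose and 2 fell, at a background of 9.54% of all genes higher and 11.4% lower. The median was 0.00 over the members and -0.00 over all genes. Trim30d had 18.8, 23.1, 20.2 and 18.7 CPM in M0 libraries with ONX-0914 against 12.1, 14.2, 12.8 and 13.9 CPM in M0 libraries (log2 change 0.61 ± 0.14, adjusted p = 0.00226). Trim39 had 20, 19.6, 22.1 and 20.9 CPM with the inhibitor against 13.7, 15, 14.2 and 16 CPM without it (log2 change 0.49 ± 0.08, adjusted p = 8.56e-05). Trim2 rose by 0.37, which ended without M0 replicate 1 (0.33), M0 replicate 3 (0.34) or M0 with ONX-0914 replicates 3 (0.34) or 4 (0.34). Trim12a rose by 0.23, which ended without M0 replicate 1 (0.18) or M0 with ONX-0914 replicates 1 (0.22) or 3 (0.19), or without the count filter (0.22). Trim43c had 38 counts with the inhibitor and 11 without it (log2 change 1.74 ± 0.50, adjusted p = 0.0126).

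Trim35 and Trim36 fell in M0 cells. Trim35 had 153, 164, 155 and 136 CPM in M0 libraries with ONX-0914 and 178, 187, 196 and 183 CPM in M0 libraries (log2 change -0.29 ± 0.06, adjusted p = 3.18e-04). Trim36 averaged 19.1 ± 1.43 CPM with the inhibitor and 23.5 ± 0.99 CPM without it (log2 change -0.30), and the call ended without M0 with ONX-0914 replicate 1 (-0.25). Trim16 had 6.67 ± 0.362 CPM with the inhibitor and 7.01 ± 0.402 CPM without it (log2 difference -0.07, adjusted p = 0.74). Without M1 replicate 2, which is in neither group here but enters the shared fit, 7 members rose and 3 fell. Trim30a, at 56.6 ± 1.63 CPM with the inhibitor and 46.3 ± 3.95 CPM without it, then passed as higher (log2 change 0.29). B cell markers summed to 54.9 to 60.3 CPM in M0 cells with ONX-0914 and to 92.7 to 95.4 CPM in M0 cells, and macrophage markers to 10440 to 11577 CPM and 12490 to 14513 CPM; their part was not tested.

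**Figure D5:**
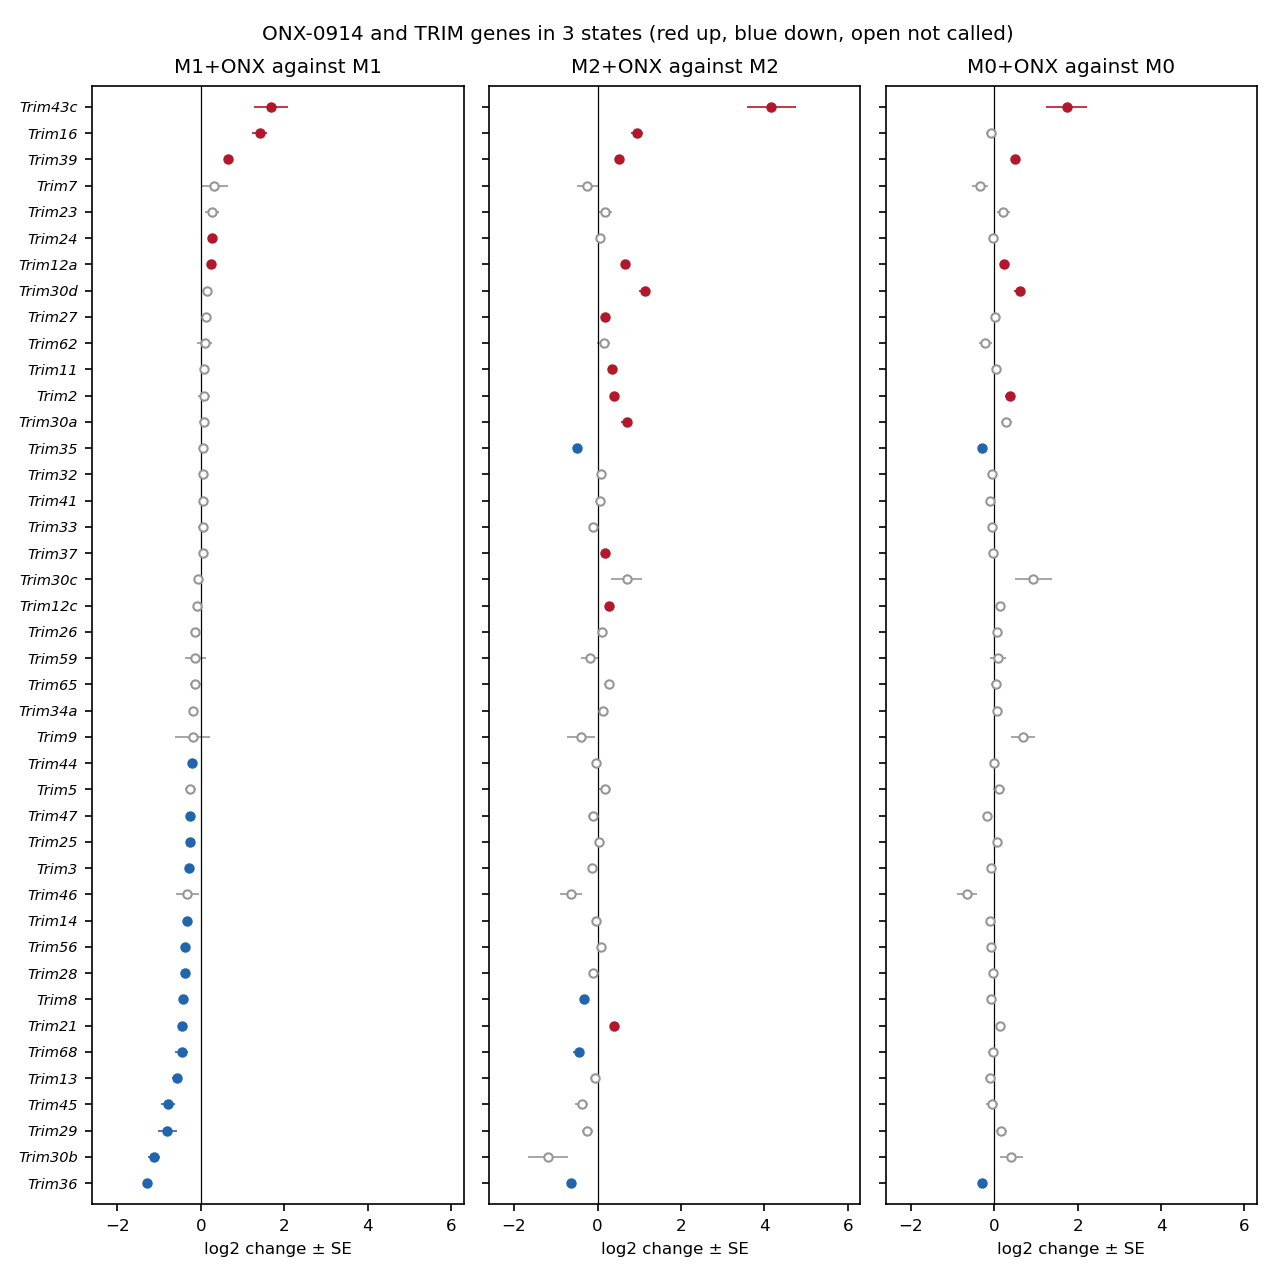
Log2 change with its SE for each tested TRIM gene with ONX-0914, in M1, M2 and M0 cells (horizontal axes, 1 panel per state, genes in the same order down the page). Red points were higher and blue points lower with ONX-0914 at an adjusted p below 0.05 and open points did not pass; the far right point in M2 cells, Trim43c, rests on 3 counts without inhibitor.

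The difference between states was tested itself. The effect of ONX-0914 in M1 cells minus that in M0 cells passed upward for 2 members and downward for 10, while 19.3% of all genes passed, 6.90% upward and 12.4% downward. Trim30b (difference -1.53 ± 0.31, adjusted p = 6.54e-04) and Trim36 (-0.99 ± 0.12, adjusted p = 9.48e-07) differed most among those lower, and Trim21 (-0.60), Trim8 (-0.36), Trim25 (-0.35), Trim28 (-0.35) and Trim56 (-0.29) also differed. Trim29 differed by -0.97, which did not pass without the count filter (-0.95, adjusted p = 0.0512). The difference of Trim45 (-0.72) ended without M0 with ONX-0914 replicate 2 (-0.65), and that of Trim13 (-0.47) ended in 7 of the fits with 1 library less, at -0.40 to -0.43. With the 16 M1 and M0 libraries fitted alone, Trim8 (-0.27, adjusted p = 0.0825), Trim28 (-0.26, adjusted p = 0.0613), Trim56 (-0.20, adjusted p = 0.115), Trim13 (-0.38) and Trim45 (-0.63) did not pass, and without the count filter neither Trim56 (-0.26) nor Trim45 (-0.70) did. Trim16 (1.48 ± 0.21, adjusted p = 1.10e-05) and Trim35 (0.35) passed upward. For Trim35 the inhibitor's effect was 0.06 in M1 cells and -0.29 in M0 cells. Without M1 replicate 2, 3 members passed upward and 15 downward, and those added downward were Trim5 (-0.52), Trim12c (-0.34), Trim30a (-0.38), Trim30d (-0.63) and Trim44 (-0.25).

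In M1 minus M2 cells 1 member passed upward and 10 downward, against 13.5% of all genes, 3.80% upward and 9.68% downward. Trim21 showed opposite signs in the 2 states, -0.46 in M1 and 0.39 in M2 cells (difference -0.84 ± 0.09, adjusted p = 1.36e-07). Trim30d (difference -0.99 ± 0.18), Trim36 (-0.65), Trim30a (-0.63), Trim56 (-0.46), Trim12a (-0.41) and Trim25 (-0.31) also differed, and Trim35 passed upward (0.54 ± 0.08, adjusted p = 1.55e-05). The differences of Trim13, Trim28 and Trim43c were -0.50, -0.26 and -2.49, and they ended in 4, 8 and 7 of the fits with 1 library less. Those fits gave -0.45 to -0.48 for Trim13, -0.23 to -0.27 for Trim28 and -1.85 to -2.62 for Trim43c. With the 16 M1 and M2 libraries fitted alone, Trim30a (-0.52, adjusted p = 0.116), Trim12a (-0.30, adjusted p = 0.0863), Trim25 (-0.20, adjusted p = 0.14), Trim13 (-0.39), Trim28 (-0.15) and Trim43c (-2.38) did not pass. In M2 minus M0 cells 2 members passed, both upward, against 6.17% of all genes (3.44% upward and 2.74% downward): Trim16 (1.01 ± 0.19, adjusted p = 0.00105) and Trim12a (0.42). The call of Trim12a ended in 5 of the fits with 1 library less, at 0.38 to 0.40. Without M1 replicate 2 the counts were 4 upward and 2 downward, with Trim30a (0.42) and Trim30d (0.52) added upward and Trim36 (-0.34) and Trim8 (-0.25) downward.

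The share of all genes called in the same direction with ONX-0914 in all 3 states was not computed. Besides Trim12a, 3 members were called so, though the M0 calls of Trim12a and Trim36 ended in fits with 1 library less. Trim39 changed by 0.65 in M1, 0.52 in M2 and 0.49 in M0 cells, and Trim36 by -1.29 in M1, -0.64 in M2 and -0.30 in M0 cells. The differences of Trim39 between states did not pass (0.16 for M1 minus M0, adjusted p = 0.387). The third was Trim43c, a gene known from the early mouse embryo and low in every library (0 to 1.3 CPM). Of its 50-base windows 42.1% recur in another gene, and 38.6% of its exon length is shared with 9330159M07Rik on the opposite strand, so the source of its counts is uncertain.

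Of the 25 members that were not tested, 11 had no count in any library: Trim40, Trim42, Trim50, Trim52, Trim54, Trim55, Trim58, Trim60, Trim61, Trim67 and Trim80. The other 14 held between 2 and 124 counts over all 24 libraries and at most 23 in 1 library. Trim17 (124 counts), Trim66 (105) and Trim34b (85) had the most, followed by Trim15 and Trim69 with 52 each. The muscle ligase Trim63 had 26 counts in M0 cells with ONX-0914, 13 in M0 cells and 7 in the other 4 groups together. Trim38, which in other cells limits signalling through TAB2 and TAB3, had 14 counts in all, none of them in the 8 M1 libraries. No change is given for these genes, and their low counts do not show that they are absent.

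By C-terminal type as listed, 24 of 37 PRY-SPRY members passed the filter. So did 3 of 4 of the PHD-bromodomain type, 3 of 4 of the NHL type and 3 of 7 of the COS-box type. Both single-pass transmembrane members passed, as did 3 of 7 without a listed C-terminal domain. In M1 against M0 cells 16 of the 24 PRY-SPRY members rose and 5 fell (median log2 1.23), and 8 of the 16 are in the cluster. None of the 3 NHL members rose and 2 fell (median -0.67), where 34.6% of all genes rose and 34.2% fell. With ONX-0914 in M1 cells all 3 without a listed domain, Trim8, Trim44 and Trim56, fell, as did 27.7% of all genes. The fall of Trim44 did not pass with the M1 libraries fitted alone (-0.12). With ONX-0914 in M2 cells 10 of 24 PRY-SPRY members rose and 2 fell (median 0.18), where 17.6% of all genes rose and 18.8% fell.

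The TRIM family also holds genes under other names, of which 6 were listed and 4 tested. Pml, the organizer of nuclear bodies, averaged 325 ± 24.1 CPM in M1 cells and 33.6 ± 3.08 CPM in M0 cells (log2 change 3.27 ± 0.07, adjusted p = 3.05e-24), and it rose by 0.43 with ONX-0914 in M2 cells. Mid1, a microtubule-bound ligase, rose in M1 against M0 cells (log2 change 2.36), while Mid2 fell (-1.48). Bspry rose with ONX-0914 by 1.37 in M1 and 1.60 in M2 cells with group means between 0.122 and 0.619 CPM.

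Of 26 genes listed for the RNA and DNA sensing pathways on which TRIM proteins act, all tested, 23 rose and 1, Mavs, fell in M1 against M0 cells. The median log2 change was 1.65, against -0.02 over all genes, of which 34.6% rose. The list is broader than the sensors and their kinases, and also holds Myd88, Isg15, Ube2l6, Usp18 and Herc6. Ddx58, which encodes RIG-I, averaged 513 ± 12.8 CPM in M1 cells and 25.1 ± 2.45 CPM in M0 cells (log2 change 4.35). With ONX-0914 in M1 cells 5 of the 26 rose and 10 fell (median -0.15, against -0.08 over all genes, of which 16.6% rose and 27.7% fell), among them Ikbke (-0.68), Myd88 (-0.63) and Rnf135 (-0.46), while Traf3 rose (0.44). In M2 cells with ONX-0914 8 rose and 2 fell, where 17.6% of all genes rose and 18.8% fell. In M0 cells 4 rose and 2 fell, where 9.54% of all genes rose and 11.4% fell. Rnf135, a RING ligase for RIG-I, fell with the inhibitor in M1 cells and rose in M2 (0.42) and M0 (0.44) cells.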

How the data were processed

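PolyA RNA of 24 macrophage libraries (6 groups of 4, assigned by sample description) was sequenced in pairs of 150-base reads. The deposited table holds raw counts per gene, not normalized. FastQC 0.11.9, cutadapt 2.8, Bowtie2 2.2.5, Picard and the mm10 build are named in the submitters' processing notes. For the counting tool, its strand setting and its handling of reads with several matches: not given in the sources used here. Per the labels, replicates are independent, each a pool of mice.

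Counts were fitted with edgeR 4.0.16 (R 4.3.3): filterByExpr, TMM factors, 1 mean per group over all 24 libraries (18 residual degrees of freedom), the quasi-likelihood test, and Benjamini-Hochberg adjustment over 14692 genes. The tested genes hold 99.927% of counts, and 37 features without a symbol hold 0.0025%. Library totals limit precision for genes of few counts, and counting intervals (95%, exact) cover counting error only. Gene types, exon lengths and positions come from GENCODE M21 and promoters from RefSeq. DESeq2 1.42.0 served as an alternative.

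Genes named with values are, per comparison, up to 8 called members of at least 1 CPM with the largest changes (5 per difference of effects) and 24 members listed by name. Others, mainly those whose call rests on few counts or ended with 1 library left out, were named after their values were seen. The members and gene lists were chosen with earlier results of these data known. One gene that the naming rule would include is not reported here.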

Additional observations from a re-analysis of the deposited data

Results flagged for a closer look

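In 19 of 252 combinations of a tested TRIM gene and a group of 4 libraries, 1 library lay apart by Dixon's criterion (the gap to the nearest library over the group's range), which chance alone meets in about 1 in 20 groups. M1 replicate 2, the library with 0.3% mitochondrial counts, gave 4 of them: 490 CPM for Trim30a (others 876 to 910), 172 for Trim30d (295 to 313), 88.7 for Trim44 (103 to 104) and 166 for Trim26 (134 to 138). M1 replicate 1 had 0.7 CPM of Trim43c (others 0.189 to 0.231). In M1 cells with ONX-0914, replicate 3 had 22.5 CPM of Trim39 (27.3 to 27.9).

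In M2 cells with ONX-0914, replicate 1 had 58 CPM of Trim41 (52.6 to 53.5) and replicate 3 had 0.248 CPM of Trim30b (0.0955 to 0.1). In M2 cells, replicate 4 had 19.9 CPM of Trim12c (23.2 to 23.7) and 29.6 of Trim27 (27 to 27.4). M2 replicate 2 had 38.6 CPM of Trim33 (46.9 to 47.9) and 0.65 of Trim7 (0.997 to 1.06), and M2 replicate 3 had 8.97 CPM of Trim2 (9.4 to 9.45). In M0 cells with ONX-0914, replicate 3 had 82.9 CPM of Trim44 (78.4 to 79.1), 58.6 of Trim41 (52.8 to 53) and 2.01 of Trim7 (1.61 to 1.65), and replicate 4 had 1.14 CPM of Trim46 (1.6 to 1.65). In M0 cells, replicate 4 had 31 CPM of Trim12c (28.4 to 28.7) and replicate 1 had 14.4 CPM of Trim12a (16.7 to 17).

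The effect of ONX-0914 differed between states, by the test of the difference in edgeR's fit, for the following members, given as log2 differences. For M1 minus M0 cells these were Trim30b (-1.53), Trim36 (-0.99), Trim29 (-0.97), Trim45 (-0.72), Trim21 (-0.60), Trim13 (-0.47), Trim8 (-0.36), Trim25 (-0.35), Trim28 (-0.35), Trim56 (-0.29), Trim35 (0.35) and Trim16 (1.48). For M2 minus M0 cells these were Trim16 (1.01) and Trim12a (0.42). For M1 minus M2 cells these were Trim43c (-2.49), Trim30d (-0.99), Trim21 (-0.84), Trim36 (-0.65), Trim30a (-0.63), Trim13 (-0.50), Trim56 (-0.46), Trim12a (-0.41), Trim25 (-0.31), Trim28 (-0.26) and Trim35 (0.54).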

How the results depend on the processing

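The log2 values compared were 259, those of members called in a comparison or listed by name, and none of these turned its sign while called; the other uncalled values were not compared. Of 1539 values under the settings other than leaving out a library, 1460 kept sign and side of the threshold, 40 lost and 21 gained a call, and 18, uncalled in both fits, differed in sign. Among 6216 values with 1 library left out, 6042 kept both, 88 lost and 30 gained a call, and 56, uncalled in both, differed in sign. With only the libraries of a comparison fitted, for M1 minus M0 cells 5 members passed downward in place of 10, for M1 minus M2 cells 4 in place of 10, and for M2 minus M0 cells 4 passed upward and 2 downward, with 1590 of all genes in place of 907. Of all called genes, the share upward was then 55.7% in place of 35.8% for M1 minus M0, 57.8% in place of 28.2% for M1 minus M2 (39.2% with DESeq2 size factors, 39% with DESeq2's Wald test) and 45.3% in place of 55.7% for M2 minus M0. For M2 minus M0 cells, 4 passed upward without the count filter and 1 downward with DESeq2. The cause was not tested. With each library left out in turn, members upward, members downward and all genes called ranged as follows. ONX-0914 gave 4 to 7, 12 to 15 and 5968 to 6804 in M1 cells, 9 to 14, 4 to 6 and 4654 to 6384 in M2 cells, and 3 to 7, 1 to 3 and 2463 to 4340 in M0 cells. M1 against M0 gave 19 to 21, 11 to 15 and 9809 to 10444, M2 against M0 2 to 2, 11 to 17 and 4739 to 6348, and M1 against M2 21 to 23, 10 to 12 and 9485 to 9991. The differences gave 2 to 3, 9 to 15 and 2448 to 3729 for M1 minus M0, 1 to 4, 0 to 2 and 660 to 1672 for M2 minus M0, and 1 to 1, 8 to 13 and 1635 to 2576 for M1 minus M2.

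Replicate numbers recur in every group. Over 60 pairs of same-numbered libraries the correlation of deviations ran from -0.052 to 0.108 (median 0.003), and 17 were highest with their own number. No pairing by number was detected, though these correlations cannot exclude a weak one. With the replicate number as a block, members upward and downward with ONX-0914 were 5 and 15 in M1, 12 and 5 in M2, and 5 and 3 in M0 cells. They were 20 and 13 for M1 against M0, 2 and 14 for M2 against M0, and 22 and 10 for M1 against M2. Depth limits Trim43c, Trim30b outside M1 cells and the members not tested.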
